A study of Homo sapiens with 46 samples.

Results

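Disome footprints were compared between cells that received siRNAs against ASCC3 and 4EHP together and cells that received control siRNA, all of them HEK293 Flp-In T-REx, a line from human embryonic kidney. The comparison rests on 4 of the 46 libraries of the series: 2 disome libraries of the combined knockdown and 2 disome libraries of the control, chosen by their labels. All knockdown cells, controls included, were transfected with 75 nM siRNA for 72 h and again with 30 nM siRNA for 24 h. The labels record no tetracycline for this arm and do not say whether its cells carried a transgene. Disomes of ABCE1 siRNA (1 library), ASCC3 siRNA (1 library) and 4EHP siRNA (2 libraries) served as references, with monosome (single-ribosome) footprints and RNA-seq of the control and of the combined knockdown (2 libraries each). The other arm of the series overexpressed SBP-tagged eRF1, either wild type or the AAQ variant, under tetracycline (48 h at 0.2 μg/ml). It also holds cells labelled naive (1 input library per assay), with no eRF1 construct named and no tetracycline recorded for them. Unselected input footprints of this arm are used below as outside references.

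When a ribosome stops on an mRNA, the ribosome behind it can run into it. RNase I cannot cut between the packed pair, so such collisions leave a longer, disome-protected fragment. ASCC3 is the helicase of the complex that pulls collided ribosomes apart. 4EHP (EIF4E2) binds the mRNA cap without promoting initiation and represses translation, and with its GIGYF partners it lowers initiation on mRNAs that carry collided ribosomes. The combined knockdown therefore targets a factor that clears collisions together with one that limits new ribosome loading on the same mRNAs. Disomes also form at ordinary pauses, among them stop codons and start regions, and their number on a transcript scales with how many ribosomes it carries.

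The files list transcripts by Ensembl identifier and do not pair them with gene names, so transcripts are described by identifier, coding length, abundance and behaviour in the other assays. The level of the ASCC3 and EIF4E2 mRNAs, and hence the depletion, could not be checked for the same reason, nor could markers of the cell line. The siRNA targets themselves may therefore be among the transcripts that fell, those described below included. The control disome libraries held 4715435 and 2493885 counts over all listed transcripts, and those of the combined knockdown 2297309 and 3936378. Replicate differences correlated above 0.7 for 54.1% of adjacent transcripts in the list and for 0.103% of transcripts 1000 places apart, as they would if a footprint is counted for each isoform it fits. Isoforms that moved together in this way were joined to 1 representative, and 719090 to 1475052 counts fell on representatives in these 4 libraries. Between 58513 and 64755 transcripts had a disome count in each of the 4 libraries. The 100 most abundant took 21.5% and 21.4% of representative counts in the controls and 20.6% and 19.9% in the combined knockdown. Separate cultures are not stated for the replicates. The p-values here therefore reflect only how far these libraries scatter, and that scatter may be technical. The disome fit left 3 residual degrees of freedom and had an infinite median prior. The spread of a typical transcript was thus pooled over all transcripts. A very small p for 1 transcript therefore does not measure the scatter of its own replicates.

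In the combined knockdown, disome footprints rose on 573 transcripts and fell on 315 of the 12432 tested, at an adjusted p under 0.05 in edgeR's quasi-likelihood test. These are 4.61% and 2.53% of the transcripts tested (7.14% in all). The rises were the larger changes, with a median log2 fold change of 1.05 (from 0.38 to 4.32) against -0.77 (from -3.95 to -0.33) for the falls. Of the rises 258, and of the falls 233, were changes of less than 2-fold. The highest quintile of mean disome level held 197 of the 315 falls but 174 of the 573 rises. The sizes of rises and falls are therefore not matched for abundance. Transcripts that rose had a median coding length of 378 codons, those that fell 224, and all tested 319.5. In raw order, both combined libraries lay above both controls on 3802 transcripts (30.6%) and below both on 2363 (19.0%). An unadjusted p under 0.05 was reached by 2578.

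The balance of rises and falls depended on the scaling and on the count filter. Division by each library's total placed the median of all transcripts at 0.09 on the log2 scale, and with TMM factors, which centre the bulk of transcripts, it lay at 0.002 and the split became 390 rises and 516 falls. DESeq2 called 29 rises and 110 falls. With the scaling by library total kept and a minimum count of 50, there were 309 rises and 293 falls among 3513 transcripts. Their median log2 fold change was -0.005. The calls also drew on every library: without control replicate 1 there were 215 rises and 158 falls, without control replicate 2 487 calls of which 186 were falls, without combined replicate 1 302 and 136, and without combined replicate 2 200 and 141. None of the 888 calls turned sign under the 11 alternative settings tried, where a setting gave it a value, and 26 rises and 38 falls were called under all of them. Those 26 rises had a median log2 fold change of 1.18 and those 38 falls one of -0.79.

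**Figure D1:**
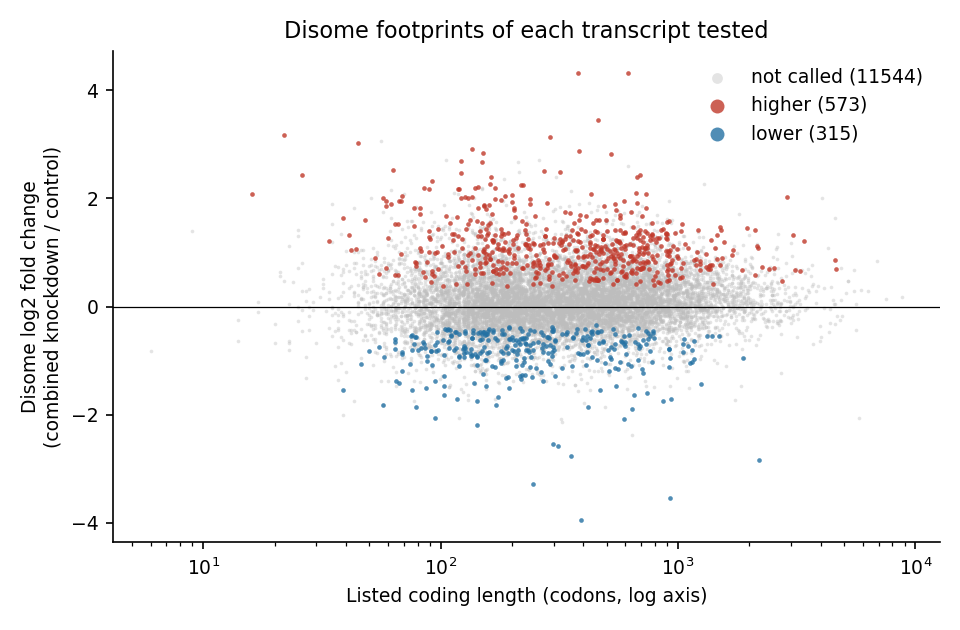
Log2 fold change of disome counts (combined knockdown over control) for each of the 12432 transcripts tested, against listed coding length in codons on a log axis. The 573 rises (red) spread over all lengths, while the 315 falls (blue) become sparse at the long end, with 6 beyond 1200 codons.

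Of the transcripts chosen by the rule for named members (past the threshold, both combined libraries outside the range of both controls, at least 20 counts in both libraries of a group), the 12 largest rises spanned 16 to 735 codons and log2 fold changes of 2.04 to 2.85. They came from 9 separate stretches of the transcript list, so some lie close together in it. The 12 largest falls came from 12 stretches, with 79 to 2203 codons and log2 fold changes of -3.29 to -1.47. Of the rises 8 were also called higher in monosomes and 7 of 11 in RNA-seq, and of the falls 9 of 12 were called lower in each. The members of smallest p, 2 per direction, are described with every disome library.

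ENST00000343597.4, with a coding sequence of 735 codons, stood at 43.9 and 37.3 disome CPM in the controls (CPM are counts scaled to an equal sum in every library) and at 163 and 186 in the combined knockdown. The means were 40.6 ± 4.67 and 174 ± 15.9 (SD, n = 2) and differed by 2.09 on the log2 scale (SE 0.16, edgeR adjusted p = 3.252e-37). Both combined libraries lay above both controls, which the rule for named members required. It was at 145 and 132 with 4EHP siRNA alone, 81.0 with ASCC3 siRNA alone and 40.6 with ABCE1 siRNA. Against ASCC3 siRNA alone the log2 difference was 1.11 (SE 0.20, edgeR adjusted p = 5.741e-05). That group is 1 library, here and in the paragraphs that follow, so its SE and p borrow the spread of the other groups and it has no replicate check. Its difference from 4EHP siRNA alone was 0.34 (SE 0.15, adjusted p = 0.205), which did not pass. Monosome footprints rose as well, from 17.9 and 18.3 to 52.7 and 53.1 CPM (log2 fold change 1.55, edgeR adjusted p = 1.517e-21). RNA-seq went from 22.4 and 20.7 to 47.9 and 51.7 (log2 fold change 1.21, edgeR adjusted p = 2.572e-05). The disome rise beyond the monosome rise, 0.54 (SE 0.16), did not pass (adjusted p = 0.0883).

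ENST00000523991.5, of 144 codons, was higher in both combined libraries than in each of the other 6 disome libraries. It held 6.79 and 4.41 disome CPM in the controls, on 32 and 11 counts, and 27.4 and 27.7 in the combined knockdown, on 63 and 109 counts. The log2 fold change was 2.22 (SE 0.27, edgeR adjusted p = 5.801e-13). With the single siRNAs it was at 6.25 and 7.24 with 4EHP siRNA and 9.67 with ASCC3 siRNA, on 16 counts. The combined knockdown exceeded 4EHP siRNA by 2.05 (SE 0.32, edgeR adjusted p = 1.478e-07), and its difference from the lone ASCC3 library was 1.51 (SE 0.39, edgeR adjusted p = 0.024). Monosomes rose less, from 8.37 and 8.87 to 15.5 and 14.5 (log2 fold change 0.79, edgeR adjusted p = 1.454e-06). RNA-seq stood at 12.4 and 11.2 in the controls and 15.7 and 17.4 in the combined knockdown (log2 fold change 0.49, adjusted p = 0.0639), short of the threshold. The disome rise went beyond the monosome rise by 1.43 (SE 0.28, edgeR adjusted p = 0.00107).

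ENST00000258416.8, of 246 codons, had the largest fall among the named members. It was lowest in the disome libraries that received 4EHP siRNA, alone or combined. Whether this transcript is itself a target of that siRNA could not be checked without gene names. Its disome level was 52.6 and 28.9 CPM in the controls and 2.61 and 5.34 in the combined knockdown, on 6 and 21 counts (log2 fold change -3.29, SE 0.27, edgeR adjusted p = 2.812e-29). DESeq2 gave a wider SE of 0.65 (log2 fold change -3.41, DESeq2 adjusted p = 2.112e-05). The disome level was 2.68 and 0.72 with 4EHP siRNA alone (log2 difference of the combined knockdown 1.14, SE 0.58, adjusted p = 0.303), on 6 and 1 counts. ASCC3 siRNA alone left 46.5 (log2 difference -3.43, SE 0.34, edgeR adjusted p = 9.142e-20) and ABCE1 siRNA 35.9. Its RNA fell too, from 14.3 and 15.2 to 1.77 and 1.61 (log2 fold change -3.12, edgeR adjusted p = 5.226e-07). Monosome counts were at 10.7 and 11.5 in the controls and at 14.4 and 5.40 in the combined knockdown, which lie on either side of the controls (log2 fold change -0.43, SE 0.50, adjusted p = 0.668). In those 2 combined monosome libraries, the counts of a 189-codon isoform amounted to 98.6% and 96.2% of those of ENST00000258416.8, against 75.8% and 81.0% in the controls.

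ENST00000215882.10, of 312 codons, was low in the libraries that received ASCC3 siRNA. It fell from 45.2 and 41.3 disome CPM to 7.40 and 7.11 (log2 fold change -2.58, SE 0.24, edgeR adjusted p = 7.689e-23). ASCC3 siRNA alone left 7.25, and the combined knockdown differed from it by -0.01 (SE 0.49, adjusted p = 0.997), an estimate resting on 1 library with 12 counts. With 4EHP siRNA alone it was at 25.0 and 34.0, above the combined knockdown (log2 difference -1.99, SE 0.28, edgeR adjusted p = 2.622e-09). Monosomes fell from 59.3 and 57.4 to 13.7 and 13.5, and RNA-seq from 60.6 and 59.1 to 17.7 and 15.8 (log2 fold changes -2.11 and -1.84, edgeR adjusted p = 2.523e-28 and 1.1e-06). Another large fall, ENST00000369162.7 of 2203 codons, went from 15.9 and 16.8 disome CPM to 3.05 and 1.78. It was at 2.42 with ASCC3 siRNA alone and at 15.2 and 20.3 with 4EHP siRNA alone. Whether either transcript is a target of the ASCC3 siRNA could not be checked without gene names. ENST00000343597.4, ENST00000258416.8 and ENST00000215882.10 kept their direction and passed the threshold under all 11 settings, and ENST00000523991.5 under the 10 that gave it an adjusted p (DESeq2 gave none).

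**Figure D2:**
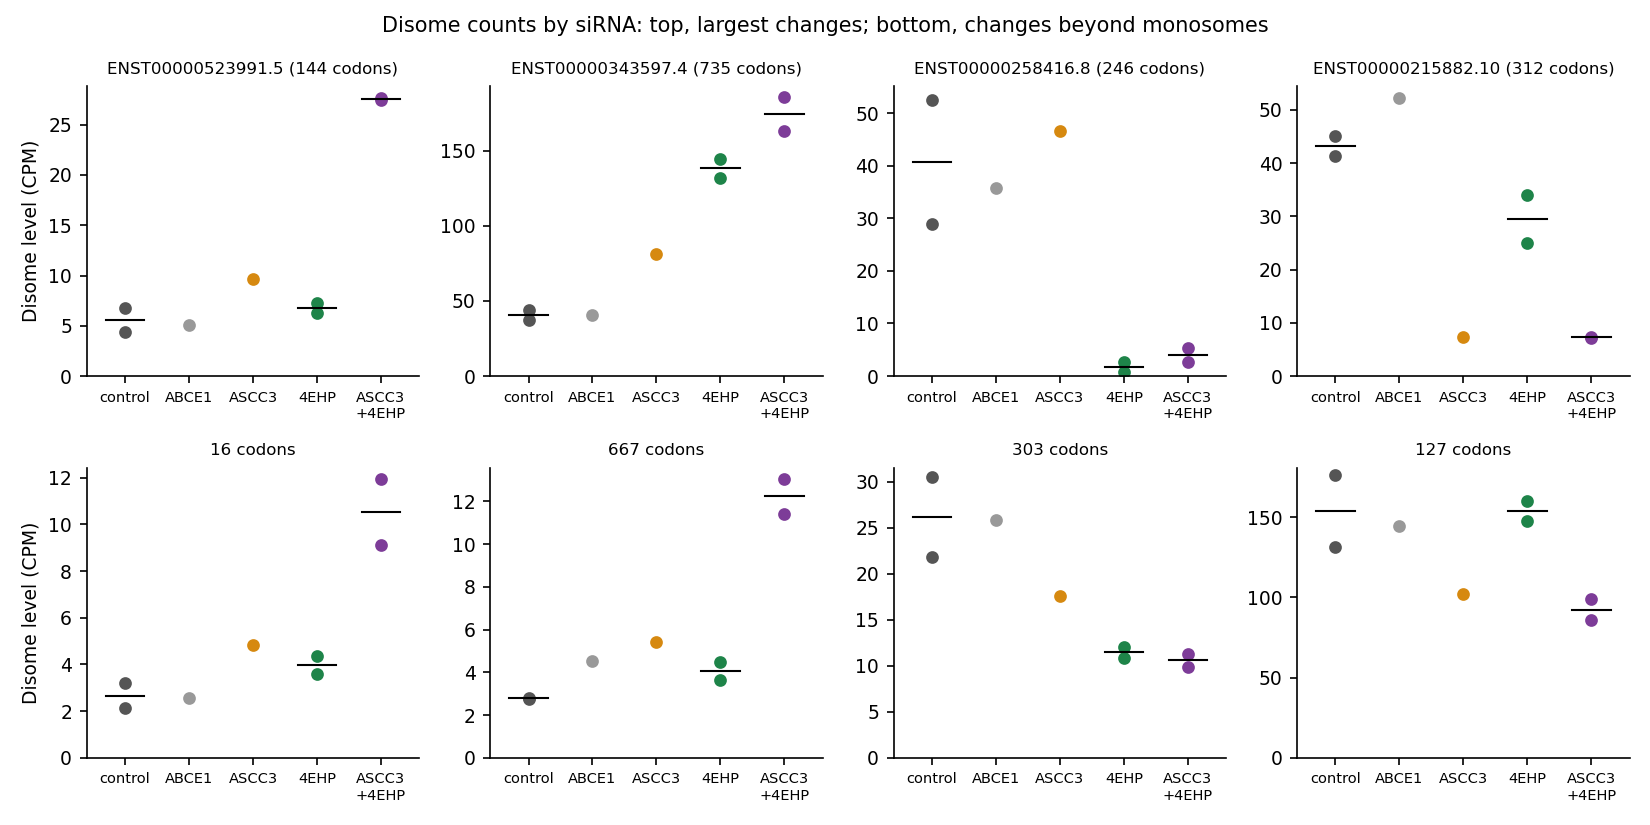
Disome CPM (y axis, from 0) for 8 transcripts in the 8 disome libraries of the knockdown arm, 1 point per library, with a bar at the mean of groups with 2 libraries. Top row, the 4 transcripts named in the text; bottom row, 4 transcripts whose disomes changed beyond monosomes, given by coding length. The 735-codon transcript was already high with 4EHP siRNA alone, the 144-codon one was high in the combined knockdown, and the 312-codon one stood at 7.25 with ASCC3 siRNA and at 7.11 and 7.40 with both.

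Many disome changes had a counterpart in the other assays. Of the 573 transcripts that rose in disomes, 507 (88.5%) had a monosome log2 fold change above 0 and 279 (48.7%) were called higher in monosomes, against 11.4% called higher there among all transcripts tested in disomes (21.3% in either direction). Of the 315 that fell, 289 lay below 0 in monosomes and 197 (62.5%) were called lower, against 9.93%. Calls of opposite sign were few, 4 among the rises and 1 among the falls. The monosome changes were smaller, with medians of 0.31 for the rises and -0.33 for the falls. These transcripts were chosen by the disome test, which favours large disome changes, so the sizes in the 2 assays are not on equal terms. Over all transcripts tested in disomes, the medians were 0.093 in disomes and 0.027 in monosomes. Monosome and disome libraries have separate controls, and the monosome libraries held 10106815 to 29096832 counts.

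Fewer of these transcripts were called in RNA-seq. Their median RNA changes, 0.30 for the rises and -0.28 for the falls, were close to the monosome medians. Of the rises with enough RNA counts, 486 of 569 lay above 0 and 126 (22.1%) were called higher, against 4.06% of all tested in disomes (6.18% in either direction). Of the falls, 275 of 314 lay below 0 and 68 (21.7%) were called lower, against 2.12%. Both monosomes and RNA were called in the same direction for 106 rises and 64 falls, monosomes alone for 173 and 133, and RNA alone for 20 and 4. The remaining 274 rises (47.8%) and 114 falls (36.2%) were called in neither. Those with calls in neither were shorter than those with calls in both (medians of 271.5 against 413 codons for rises, 173.5 against 373.5 for falls), while their median disome change was of like size (1.06 against 1.07, and -0.73 against -0.83). Across abundant transcripts, the disome change correlated with the monosome change at Pearson r 0.67 and Spearman rho 0.63 (n = 3480) and with the RNA change at 0.55 and 0.50 (n = 3473). Transcripts are not independent replicates.

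Over their own tables, monosomes had 2184 rises and 1653 falls among 28324 transcripts (7.71% and 5.84%, 13.5% together), and RNA-seq had 929 and 384 among 33231 (2.8% and 1.16%, 3.95% together). With TMM factors the splits were 1702 and 2202 in monosomes and 471 and 627 in RNA-seq. Monosome calls fell from 3837 to 1885 without control replicate 1, 2061 without control replicate 2 and 1852 without combined replicate 2, and RNA-seq calls from 1313 to 140 and 112 without control replicates 1 and 2, and to 154 and 169 without combined replicates 1 and 2.

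**Figure D3:**
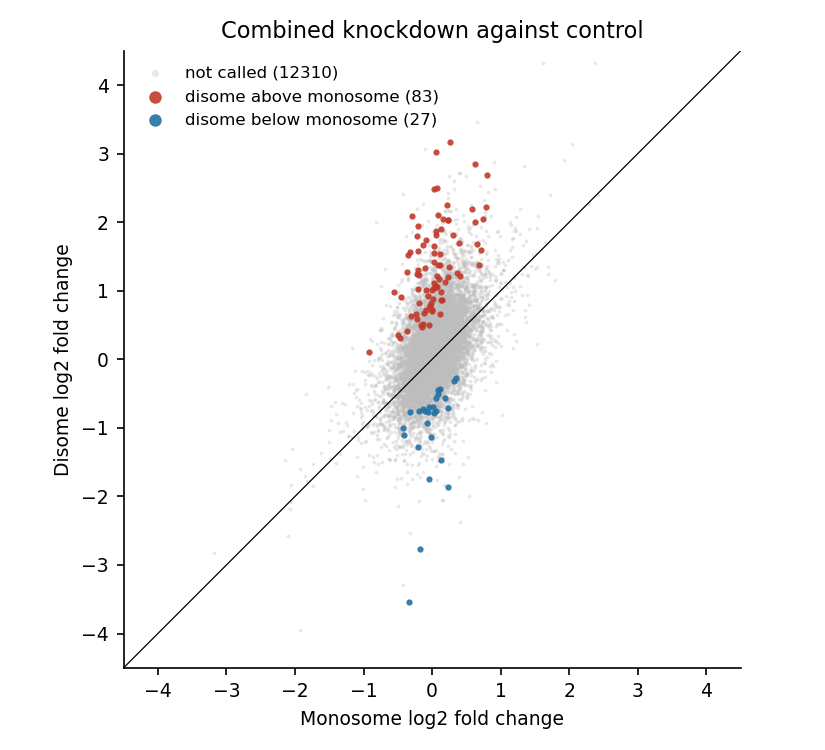
Disome log2 fold change (y axis) against monosome log2 fold change (x axis) for 12420 transcripts measured in both, combined knockdown over control, with the line of equality. Disomes exceeded monosomes on 83 transcripts plotted (red) and fell short on 27 (blue). Median monosome changes were 0.02 and 0.00 over all 88 and 28 calls. Among the 6 largest rises chosen by the rule for named members, the monosome change reached 0.80.

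The change in disomes beyond the change in monosomes was tested in 1 model over all 18 footprint libraries of the arm. It was higher on 88 and lower on 28 of 25543 transcripts (0.454%; 0.345% higher and 0.11% lower, edgeR adjusted p under 0.05), and 2710 had an unadjusted p under 0.05. Those that were higher had a median disome change of 1.25 and a median monosome change of 0.02, those that were lower -0.76 and 0.00. Of the 88, 12 were also called higher in monosomes and 10 were called lower there, and of the 28, 4 were also called lower and 3 higher. Their median coding lengths were 203.5 and 153 codons, beside 226 for all tested here, and they came from 72 and 26 stretches of the list. Of the 83 and 27 that were also tested in disomes alone, 76 and 24 were called there. In RNA-seq the medians were 0.02 and -0.15. Fewer than 40 disome counts over the 4 libraries stood behind 7 of the 88 and 3 of the 28. With TMM factors the split was 52 higher and 61 lower. The number of calls, 116, became 61 without disome control replicate 1, 63 and 46 without monosome control replicates 1 and 2, and 60 without monosome combined replicate 2.

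A transcript of 667 codons showed such a rise. It held 2.76 and 2.81 disome CPM in the controls and 13.1 and 11.4 in the combined knockdown, on 13, 7, 30 and 45 counts. That the groups did not overlap was required by the rule that chose it. Its monosomes were at 7.43 and 7.94 in the controls and 9.30 and 7.60 in the combined knockdown, which overlap. Disomes rose by 2.03 beyond them on the log2 scale (SE 0.37, edgeR adjusted p = 0.000301). Its RNA was at 24.5 and 24.0 in the controls and 18 and 20.5 in the combined knockdown (log2 fold change -0.33, adjusted p = 0.132). With 4EHP siRNA it was at 4.46 and 3.62, below the combined knockdown (log2 difference 1.54, SE 0.42, edgeR adjusted p = 0.014), and with ASCC3 siRNA at 5.44 (log2 difference 1.15, SE 0.52, adjusted p = 0.409).

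A coding sequence of only 16 codons went from 2.12 and 3.21 to 9.14 and 11.9 disome CPM, while its monosomes stood at 11.3 and 12.5 in the controls and 10.6 and 9.25 in the combined knockdown. The excess was 2.42 on the log2 scale (SE 0.38, edgeR adjusted p = 7.312e-06). It rested on 10, 8, 21 and 47 disome counts. RNA-seq lists this transcript at 0 in all 4 libraries, and RNA-seq lengths in the files are 10 codons shorter than footprint lengths. Its disomes and monosomes differed in the isoforms they fit: an 11-codon isoform held 88.6% to 91.6% of its monosome counts and at most 10.0% of its disome counts.

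Falls beyond monosomes were smaller, with a median of -0.70 against 1.29 for the rises. The highest quintile of mean disome level held 19 of the 27 falls and 27 of the 83 rises also tested in disomes alone. These sizes are therefore not matched for abundance. A transcript of 127 codons had 176 and 132 disome CPM in the controls and 98.8 and 85.9 in the combined knockdown, with monosomes at 270 and 267 against 286 and 273 (difference of log2 changes -0.84, SE 0.13, edgeR adjusted p = 7.312e-06). Its level was 148 and 160 with 4EHP siRNA, above the combined knockdown (log2 difference -0.74, SE 0.15, edgeR adjusted p = 0.000175), and 102 with ASCC3 siRNA (log2 difference -0.15, SE 0.19, adjusted p = 0.85). A transcript of 303 codons went from 21.8 and 30.5 to 11.3 and 9.91, with monosomes at 57.4 and 55.3 against 48.7 and 48.6 (-1.05, SE 0.23, edgeR adjusted p = 0.00938). That call was lost without disome control replicate 2 (-0.85) or combined replicate 2 (-0.93). Here 4EHP siRNA alone gave 12.1 and 10.9, and the difference of the combined knockdown from it was -0.14 (SE 0.32, adjusted p = 0.876).

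Against 4EHP siRNA alone, disomes of the combined knockdown were higher on 247 and lower on 189 of the same 12432 transcripts (1.99% and 1.52%, 3.51% together, edgeR adjusted p under 0.05), by medians of 1.09 and -0.78. With TMM factors there were 477 calls, 326 of them lower. The 436 calls became 117 and 175 without 4EHP replicates 1 and 2 and 123 without combined replicate 2. Against ASCC3 siRNA alone, 54 transcripts rose and 15 fell (0.434% and 0.121%, 0.555% together), by medians of 1.49 and -1.04. That group is 1 library of 1654719 counts, the shallowest but 1 of the 8, and is assumed to vary like the others. With TMM factors the split was 42 and 29, and without combined replicate 2 the 69 calls became 22. The unadjusted p was under 0.05 for 2009 transcripts against 4EHP siRNA and 1243 against ASCC3 siRNA. The comparisons with control, 4EHP and ASCC3 siRNA share the combined libraries.

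In the edgeR fit, falls made up a larger share of short coding sequences than of long ones. Up to 150 codons, 95 of 2581 transcripts fell (3.68%), and the share declined to 3.22% in the next class (up to 300 codons), 1.89% in the class up to 600, 1.86% in the class up to 1200 and 0.713% (6 of 842) above that, against 2.53% of all. With DESeq2 the shortest class hardly differed from all tested (0.93% against 0.885% fell). Rises varied less, from 4.07% in the shortest class to 5.66% between 600 and 1200 codons and 4.87% above 1200, against 4.61% of all. The median disome log2 fold change was 0.04 and 0.04 in the lower 2 classes and 0.11, 0.16 and 0.18 in the upper 3, beside 0.09 for all. With TMM factors the median of the shortest class was -0.05 and that of all 0.002, so signs within a class follow the scaling and only the differences between classes are read. The medians also climbed with length in monosomes (-0.01, 0.01, 0.04, 0.07 and 0.07) and in RNA-seq (0.03, 0.05, 0.08, 0.12 and 0.13). Disomes beyond monosomes had medians of 0.04, 0.02, 0.07, 0.10 and 0.12 in the 5 classes.

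**Figure D4:**
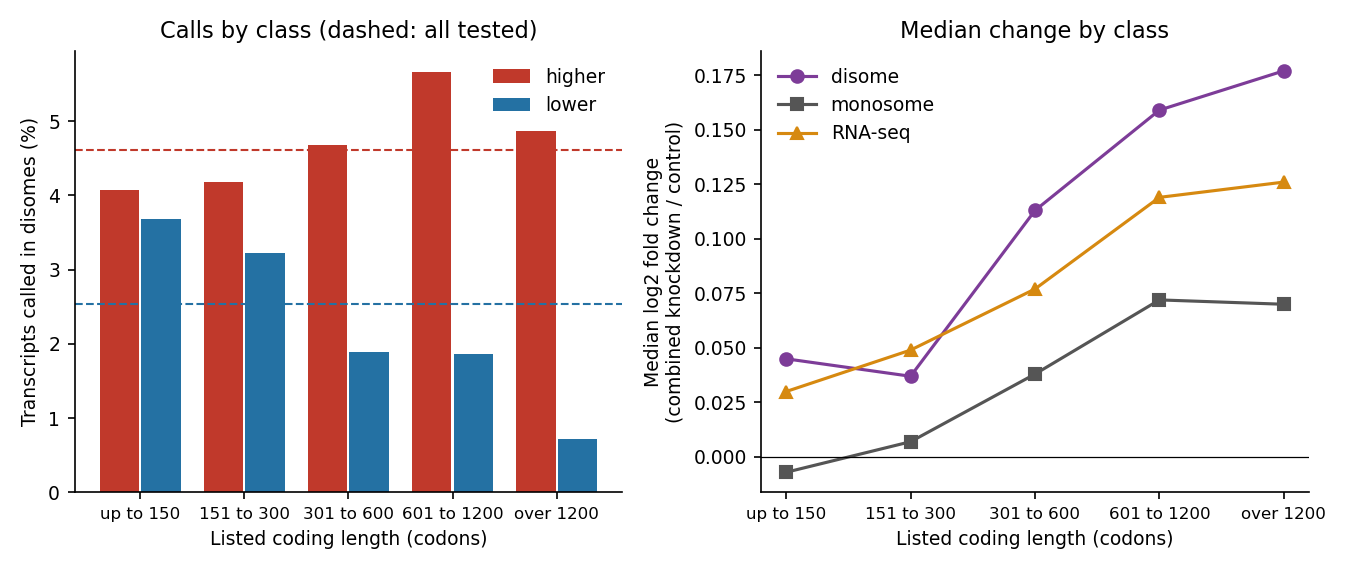
Left, percentage of transcripts whose disomes rose (red) or fell (blue) in each class of coding length, with dashed lines at the values over all tested (4.61% and 2.53%). Right, median log2 fold change by class in disomes, monosomes and RNA-seq, which climbs from 0.04 to 0.18 in disomes and stays lower in monosomes.

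As a share of each library's disome counts, coding sequences over 1200 codons took 5.04% and 5.02% in the controls and 5.73% and 5.45% in the combined knockdown, means of 5.03 ± 0.014% and 5.59 ± 0.20% (SD, n = 2). The class between 600 and 1200 codons went from 17.4% and 17.8% to 18.5% and 18.2%. Sequences between 150 and 300 codons took 28.1% and 28.2% in the controls and 27.3% and 27.5% in the combined knockdown, and those up to 150 codons 20.9% and 20.8% against 20.3% and 20.5%. Groups did not overlap in these 4 classes, and they overlapped between 300 and 600 codons. With 2 libraries against 2 the exact permutation test cannot go below p = 0.33. The Wilson 95% interval of each share was at most 0.134 percentage points to either side and covers counting error only.

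The share of the longest class was also above the controls with the single siRNAs and in the other assays, but not with ABCE1 siRNA. Above 1200 codons, ASCC3 siRNA alone gave 5.61%, 4EHP siRNA alone 5.46% and 5.16%, and ABCE1 siRNA 4.93%. In monosomes that class took a mean of 5.94 ± 0.079% in the controls and 6.16 ± 0.21% in the combined knockdown (SD, n = 2). The monosome groups were barely apart, at 5.882% and 5.994% against 6.315% and 6.013%. Over unjoined isoforms they overlapped, at 5.255% and 5.431% against 5.621% and 5.37%. In RNA-seq the class took 9.77 ± 0.041% in the controls and 10.4 ± 0.19% in the combined knockdown (SD, n = 2). The disome difference was 0.557 percentage points, beside 0.226 in monosomes and 0.665 in RNA-seq.

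Calls also followed abundance. From the lowest to the highest quintile of mean disome level, rises numbered 50, 87, 118, 144 and 174, and falls 7, 20, 23, 68 and 197. Of the 315 falls, 197 thus lay among the most abundant transcripts, where they outnumbered rises (7.92% against 7.0%). The median log2 fold change went from 0.31 in the lowest quintile to -0.03 in the highest.

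Transcripts were next ordered by the disome-to-monosome ratio measured in the naive and wild-type eRF1 input libraries of the other arm, which share no library with the knockdown comparison (10903 transcripts with at least 50 counts). From the lowest to the highest quintile of that ratio the median change in disomes beyond monosomes was 0.13, 0.10, 0.07, 0.00 and -0.02. Disomes beyond monosomes rose on 31, 20, 13, 9 and 3 transcripts and fell on 1, 5, 4, 8 and 8. Rises in disomes alone were spread as 116, 112, 114, 82 and 80 and falls as 76, 61, 66, 65 and 35. Over all 12432 transcripts tested in disomes, 83 rose (0.668%) and 27 fell (0.217%) beyond monosomes. Rises beyond monosomes were thus most frequent on transcripts with few disomes per monosome in those other cells. The quintiles differed in depth, however: the lowest held 23.8% and 24.9% of disome counts in the controls and the highest 10.5% and 10.0%. Since calls followed abundance, these counts of calls are not matched for it. Over the same quintiles the median monosome change climbed (-0.073, -0.014, 0.025, 0.057 and 0.119). The median disome change was 0.043, 0.064, 0.083, 0.065 and 0.132, so it was not largest in the lowest quintile. The disome share of the lowest quintile overlapped between groups, at 23.8% and 24.9% in the controls and 23.7% and 23.8% in the combined knockdown. Its monosome share did not overlap, at 20.5% and 20.6% against 19.4% and 19.2%. The lowest quintile had a median coding length of 248 codons and the highest 395.

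The AAQ variant of eRF1 lacks the catalytic glycines that release the nascent chain, and still binds ribosomes. In the input disomes of the other arm, AAQ cells differed from wild-type eRF1 cells on 456 transcripts upward and 309 downward of 11139 tested (4.09% and 2.77%, 6.87% together, edgeR adjusted p under 0.05). Of the 437 AAQ-raised transcripts measured in the knockdown disomes, 44 fell (10.1%) and 13 rose (2.98%) in the combined knockdown, against 2.53% and 4.61% of all tested. Their median log2 fold change was -0.10 beside 0.09 for all, with a median length of 181 codons. Most of them were abundant, so the same was counted within the highest abundance quintile, where 41 of 307 fell (13.4%) against 7.92% of all in it. Up to 150 codons, 23 of 169 fell (13.6%) against 3.68%. This second comparison was not matched for abundance, and none matched length and abundance together. Their median change was -0.01 in monosomes and -0.08 in disomes beyond monosomes, the latter beside 0.06 for all. With TMM factors 65 fell (14.9%, against 4.15% of all), and with DESeq2 24 fell (5.49% against 0.885%). Fewer AAQ-raised transcripts fell when any 1 control or combined library was left out, and so did fewer of all transcripts. Those fits leave 1 library in a group, and whether the excess over all transcripts held in them was not tested. The 220 measured AAQ-lowered transcripts held 7 rises and 7 falls (3.18% each). Within the highest abundance quintile, however, 6 of 48 of them fell (12.5%), a share close to that of the AAQ-raised transcripts there (13.4%); the difference between the lists was not tested.

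Together the AAQ-raised transcripts took 22.3% and 22.1% of disome counts in the controls and 21.3% and 20.6% in the combined knockdown. Both combined libraries lay below all the other disome libraries of the arm: 22.3% and 22.4% with 4EHP siRNA, 22.9% with ASCC3 siRNA and 22.7% with ABCE1 siRNA. In monosomes the share was 16.1% and 15.8% in the controls and 15.9% and 15.7% in the combined knockdown, and the groups overlapped.

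**Figure D5:**
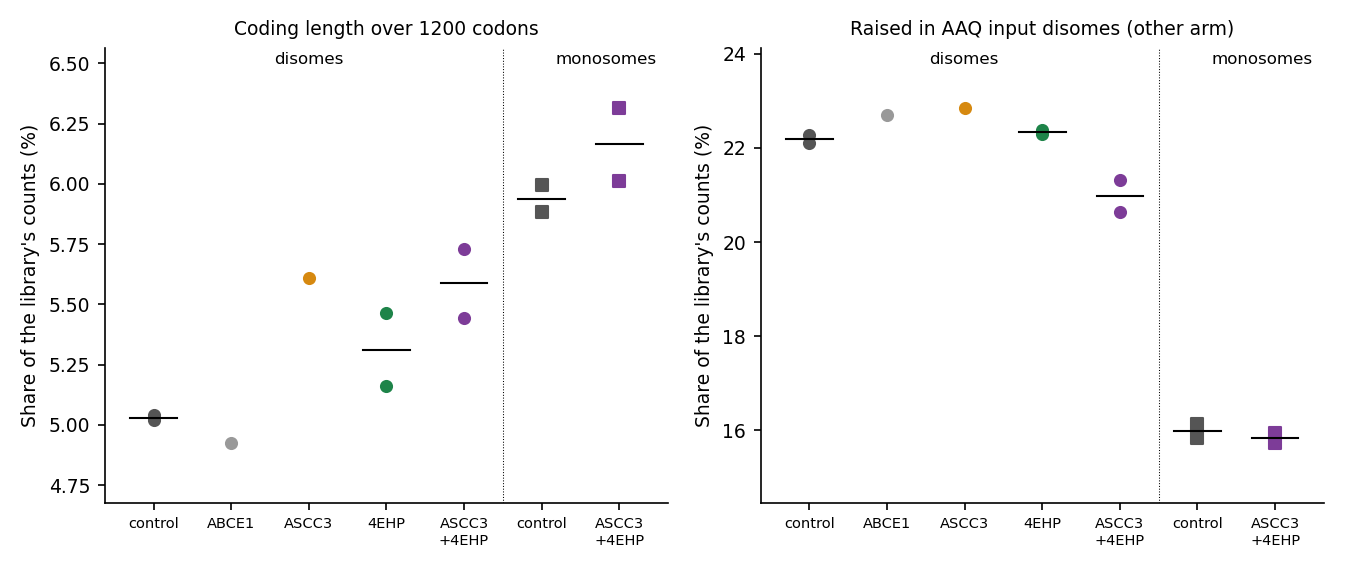
Share of each library's counts (%, axes not from 0) on coding sequences over 1200 codons (left) and on transcripts raised in AAQ input disomes (right), 1 point per library, bars at the mean of 2 libraries. In disomes the longest class lay at 5.45% and 5.73% in the combined knockdown against 5.02% and 5.04% in the controls, and the AAQ-raised share at 20.6% and 21.3% against 22.1% and 22.3%.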

How the data were processed

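Footprints and RNA reads were handled with STAR 2.7.0a and UMI-tools 1.1.1 on build hg38, per the submitters' processing notes; for the counter and the annotation: not given in the sources used here. The deposited counts per transcript (whole reads or footprints, not normalized) were used as given, and another deposited column holds the listed length in codons. Isoforms within 40 lines were joined where their replicate differences, after removal of 2 components, correlated above 0.7 (at least 500 counts), or where their counts were identical, which left 53971 features. Library size was the sum of all counts of a library. edgeR 4.0.16 (glmQLFit robust, glmQLFTest, two-sided, filterByExpr minimum count 10, Benjamini-Hochberg adjustment over all transcripts tested) was run in R 4.3.3 on group means; the 8 disome libraries shared an estimate of the spread, as did the 10 monosome and 8 RNA-seq libraries. Scripts were tested on simulated data. Alternatives were TMM factors, DESeq2 1.42.0, no filter, a minimum count of 50, only the groups compared, a replicate block, unjoined isoforms and leaving out each replicate.

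Named transcripts were the 12 largest changes per direction (6 for disomes beyond monosomes) past the threshold, with both combined libraries outside the control range and at least 20 counts in both libraries of a group; of these, the 2 of smallest p per direction from separate stretches are described. Gene lists, cell markers and the siRNA targets could not be matched, since the files give no gene names, so no sequences are shown. Members, lists and classes were chosen with earlier results of these data known, and the AAQ lists and input ratio classes after these files were seen. The abundance quintiles use the same disome libraries as the test. Replicate libraries differed by more than counting noise (chi-square per degree of freedom 1.35 to 3.93), so none was treated as a duplicate.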

Additional observations from a re-analysis of the deposited data

How the results depend on the processing

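Counts of calls moved with the tool, the filter and each library. In disomes, beside 888 calls (573 rises and 315 falls), DESeq2 made 139 (29 and 110, of which 29 and 107 were among the 888). No count filter gave 512 (344 and 168) and unjoined isoforms 2317 (1420 and 897). A minimum count of 50 gave 309 rises and 293 falls, and TMM factors gave 516 falls. DESeq2 gave 1247 calls in monosomes, 199 for disomes beyond monosomes, 819 in RNA-seq, 119 against 4EHP siRNA and 11 against ASCC3 siRNA. No count filter gave 2222 calls in RNA-seq, 205 against 4EHP siRNA and 31 against ASCC3 siRNA, and fitting only the groups compared gave 5630 in RNA-seq. Leaving out 1 replicate gave 341 to 487 disome calls (200 to 302 rises, 136 to 186 falls), 1852 to 2978 in monosomes, 46 to 136 for disomes beyond monosomes, 112 to 169 in RNA-seq, 117 to 295 against 4EHP siRNA and 22 to 58 against ASCC3 siRNA. Over unjoined isoforms the disome share differed by -0.823 points up to 150 codons, -0.523 between 150 and 300 and 1.09 between 600 and 1200, and between 300 and 600 codons leaving out 1 replicate gave -0.186 to 0.0267, changing sign without control replicate 1 or combined replicate 1 (0.0014). The cause of these shifts was not tested.

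With the replicate number as a block, calls numbered 1128 in disomes, 4689 in monosomes, 239 for disomes beyond monosomes, 1318 in RNA-seq and 579 against 4EHP siRNA. The numbers are not stated to mark a shared batch. Over 853 abundant transcripts, differences between replicates correlated at 0.379 between control and combined disomes, 0.23 between control and 4EHP disomes, 0.301 between 4EHP and combined disomes and 0.197 between control and combined monosomes. No paired analysis was possible against ASCC3 siRNA because its lone disome library has no number. Over the same 853 transcripts, the SD of the log2 replicate difference was 0.217 and 0.223 in control and combined disomes. It was 0.092 and 0.105 in monosomes and 0.083 and 0.167 in RNA-seq. The chi-square per degree of freedom was instead largest in combined RNA-seq (3.93, against 1.71 in combined disomes). Which assay limited the precision was not tested.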
